A study of Mus musculus with 5 samples.

Results

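Integrins are cell-surface receptors made of an alpha and a beta subunit that tie the extracellular matrix to the actin cytoskeleton. The results below describe 10 mouse integrin subunit genes in B16F1 cells, a melanoma line, across TGF-β1 treatment, the MRTF pathway inhibitor CCG1423 and clones labelled as Tmsb4x knockouts. The genes were Itga2, Itga3, Itga4, Itga5, Itga6, Itga7, Itgav, Itgb1, Itgb3 and Itgb5. Their probes were found by the RefSeq accession of each array probe, which gave 17 probes out of 56595 and 10 genes out of 22903 named ones.

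RNA came from 5 cultures, each on 1 array with 1 dye. Wild-type B16F1 cells received vehicle, TGF-β1 at 10 ng/ml, or TGF-β1 at 10 ng/ml with CCG1423 at 10 µM (n = 1 each), and 2 Tmsb4x knockout clones received TGF-β1 at 10 ng/ml (n = 2). The TGF-β1 treatments lasted 2 days, and no duration is given for the vehicle culture alone. The third culture is named for both agents in its title but for CCG1423 alone in its treatment field, and it was taken as both. Every knockout culture had TGF-β1, so the effect of the knockout without TGF-β1 is not part of the design, nor is CCG1423 without TGF-β1. Each knockout line is 1 clone, the edited part of the gene is not given in the labels, and the series text calls the cells both knockout and knockdown. Whether the cultures were independent of one another is not in the labels. Each p-value here rests on the spread between 2 clones, for the gene itself and pooled over all genes. That spread may in part be technical.

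Between 48.2% and 53.8% of probes on an array were well above background, 0 spots were saturated, and all arrays came from the same slide and scan. Tmsb4x, the targeted gene, had a normalized log2 level of 5.05 with vehicle, 7.12 with TGF-β1, 6.79 with CCG1423 added, and 5.44 and 4.28 in clones 1 and 2. In the clones it was thus 3.21-fold and 7.16-fold below treated wild type (limma log2 difference -2.26, SE 0.44), short of the 0.05 threshold at an adjusted p = 0.0864. Clone 1 lay above untreated wild type, so directions drawn below for the knockout rest on the label. All 11 melanocyte markers were well above background on all 5 arrays. Of the markers of other cells, 6 of 7 for fibroblasts, 4 of 6 for endothelium, 5 of 8 for epithelium and 5 of 12 for immune cells were above background on no array. In bulk RNA, fewer cells of a type and less RNA per cell cannot be told apart.

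As background, the alpha chain largely sets what an integrin binds. The products of Itga3, Itga6 and Itga7 pair with the beta-1 chain, encoded by Itgb1, as laminin receptors, that of Itga2 as a collagen receptor, and those of Itga4 and Itga5 as fibronectin receptors, the alpha-4 form also binding VCAM1 on endothelium. The alpha-v chain, from Itgav, pairs with several beta chains, among them those from Itgb3 and Itgb5, to bind vitronectin and other proteins with an RGD motif. Some alpha-v integrins release TGF-β from its latent complex, and integrin genes are themselves among the genes that TGF-β can regulate. In melanoma, the alpha-v beta-3 pair is known as a marker of invasive growth. Actin assembly at integrin adhesions frees MRTF, a coactivator of the transcription factor SRF, from monomeric actin.

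Promoter windows of 300 bases, most of each upstream of a gene's start, were matched in RefSeq (build GRCm38.p6) for 7 of the 10 genes, with 2 starts for Itga3 and so 8 promoters in all. Shown are both Itga3 starts, since the 2 Itga3 probes gave different results, and the Itgb5 promoter, since Itgb5 was the member at least 2-fold higher with TGF-β1. Each runs 5′ to 3′ on the gene's strand, and capitals mark matches, on either strand, to the SMAD-binding letters CAGAC or the AP-1 letters TGANTCA.
Itga3 upstream start, chr11:95076665-95076964, minus strand: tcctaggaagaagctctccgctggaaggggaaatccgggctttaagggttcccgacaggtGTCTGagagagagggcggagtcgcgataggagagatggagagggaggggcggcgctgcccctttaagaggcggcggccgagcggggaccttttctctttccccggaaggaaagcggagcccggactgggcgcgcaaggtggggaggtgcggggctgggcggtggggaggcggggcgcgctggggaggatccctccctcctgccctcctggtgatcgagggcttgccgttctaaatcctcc
Itga3 downstream start, chr11:95069149-95069448, minus strand: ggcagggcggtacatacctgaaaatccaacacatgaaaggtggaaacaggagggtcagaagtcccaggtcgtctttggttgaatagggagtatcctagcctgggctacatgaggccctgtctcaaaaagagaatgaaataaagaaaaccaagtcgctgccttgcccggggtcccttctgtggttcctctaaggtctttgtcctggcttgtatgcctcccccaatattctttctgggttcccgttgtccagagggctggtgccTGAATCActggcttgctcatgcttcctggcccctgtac
Itgb5, chr16:33829415-33829714, plus strand: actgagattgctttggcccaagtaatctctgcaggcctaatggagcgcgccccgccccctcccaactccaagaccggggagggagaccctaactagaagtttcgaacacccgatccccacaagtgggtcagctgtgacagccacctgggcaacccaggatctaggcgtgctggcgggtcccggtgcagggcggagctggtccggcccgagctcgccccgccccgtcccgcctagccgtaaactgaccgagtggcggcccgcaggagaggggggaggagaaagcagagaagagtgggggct
The upstream Itga3 window held 1 CAGAC match and the downstream one held 1 TGANTCA match, and the Itgb5 window held 0 of either. Of 32851 RefSeq promoters of this length, 49.6% held CAGAC and 7.81% held TGANTCA. The TEAD letters GGAATG, found in 14.7% of promoters, occurred in that of Itgb1 alone among the 8. The Sp1 letters GGGCGG, not capitalised above, were in all 8 windows and in 35.7% of all promoters; the 8 windows were 52.3% to 67.3% GC, against a median of 52.7% over all promoters. The CArG box, the element bound by SRF, occurred in 0 of the 8 and in 1.63% of all promoters. A match is a description of the letters and not evidence of a bound site.

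Of the 17 probes, 12 were well above background on all 5 arrays, 2 on 4 arrays and 3 on no array. The probe with the highest mean level over the 5 arrays, called the brighter one, stands for its gene below. By this probe, 8 genes were measured on all arrays, Itga7 on all but clone 2, and Itga2 on none. The Itga3 probe called dimmer still had the higher signal of the 2 in wild type with TGF-β1, with and without CCG1423. Levels are log2 processed signals minus each array's 75th percentile, so 0 is the 75th percentile of that array. Apart from this choice of probe, they are compared between arrays for 1 probe, never between probes.

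**Figure D1:**
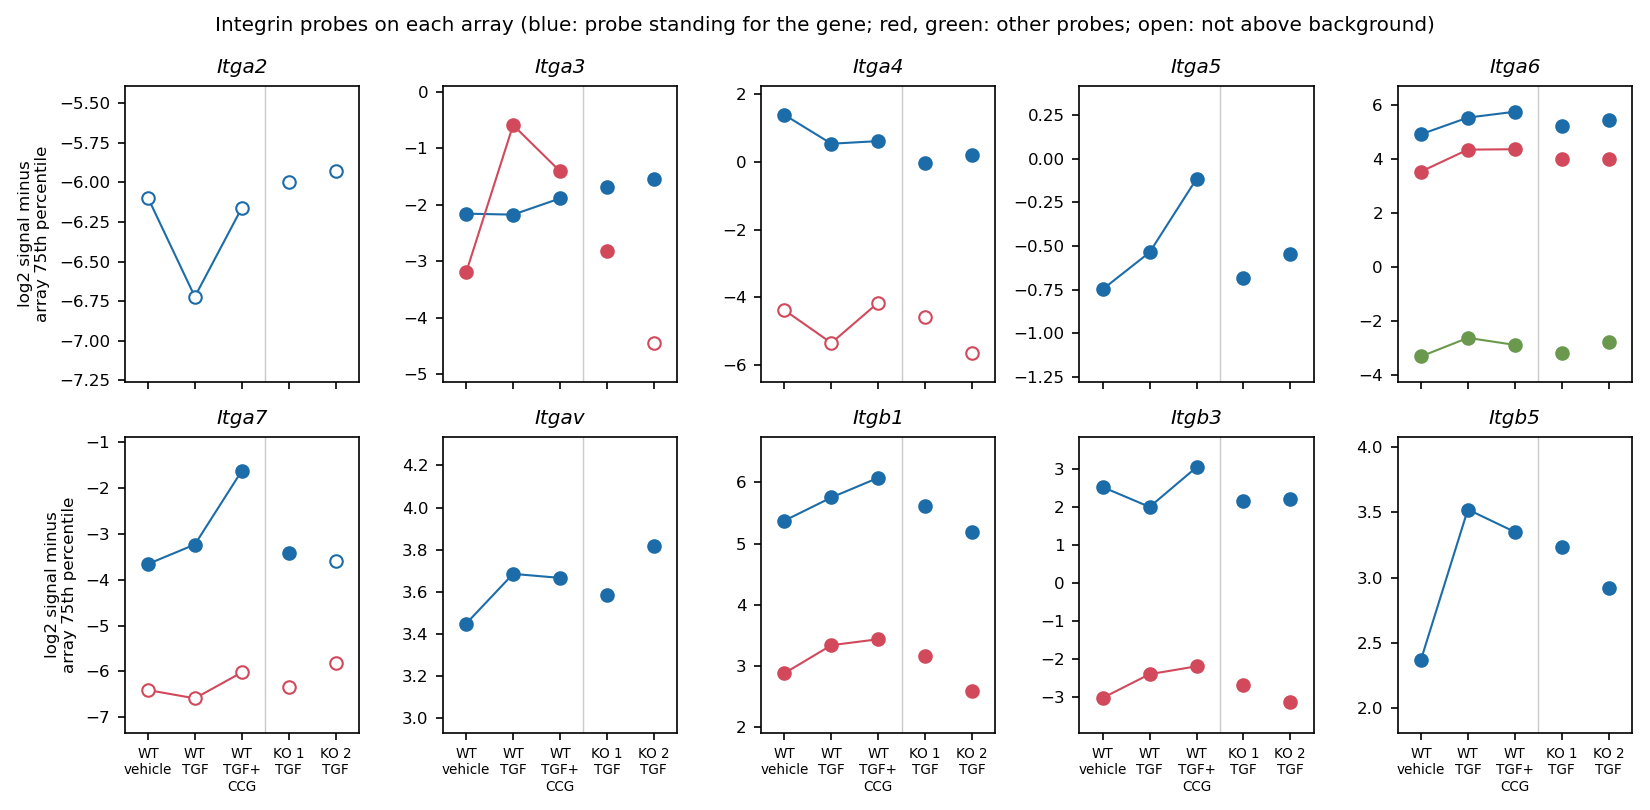
Normalized log2 level (signal minus the array's 75th percentile, vertical axis; scales differ between panels) of every probe of the 10 integrin genes on the 5 arrays; each point is 1 array, filled where well above background, and lines join the 3 wild-type arrays. Itgb5 rises from 2.37 with vehicle to 3.52 with TGF-β1, and the red Itga3 probe from -3.20 to -0.59 while the blue one is at -2.16 and -2.18.

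With TGF-β1, Itgb5 was the only one of 9 measured members at least 2-fold higher than with vehicle, and 0 were 2-fold lower. Itgb5, the vitronectin-binding partner of alpha-v, stood at 2.37 with vehicle, 3.52 with TGF-β1, 3.35 with CCG1423 added, and 3.23 and 2.92 in clones 1 and 2. Vehicle was the lowest array for this gene and every TGF-β1 array lay above it. The difference between TGF-β1 and vehicle was 1.15 on the log2 scale, or 2.22-fold, and the gap between the clones was 0.31. Across the series, 4.95% of 14142 genes were at least 2-fold higher with TGF-β1, 3.27% were lower and 8.22% differed either way. The members' count of 1 in 9 is near that background. With 1 array a side, none of these wild-type differences has a replicate check.

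Itga6, a laminin receptor chain, went from 4.90 with vehicle to 5.52 with TGF-β1 and 5.74 with CCG1423 added, and was 5.23 and 5.42 in the clones. Its 3 probes gave 0.62, 0.81 and 0.69 for TGF-β1 against vehicle. Every Itga6 probe thus stood higher with TGF-β1 by a similar amount, below 2-fold. Itgb1, the shared beta chain, stood at 5.38 with vehicle, 5.75 with TGF-β1, 6.08 with CCG1423 added, and 5.61 and 5.18 in the clones. Its second probe gave 0.46 for TGF-β1 against vehicle beside 0.38 for the first. The clones differed by 0.43 for Itgb1, more than TGF-β1 differed from vehicle.

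Itga5, the fibronectin receptor chain, moved over a range of 0.63 across all 5 arrays. It was at -0.75 with vehicle, -0.54 with TGF-β1, -0.12 with CCG1423 added, and -0.68 and -0.55 in clones 1 and 2. Itgav spanned 0.37, the narrowest range of the 8 fully measured genes, with 3.45 for vehicle, 3.68 for TGF-β1, 3.67 with CCG1423 added, and 3.58 and 3.82 in the clones. Its difference between TGF-β1 and vehicle, 0.24, equalled the gap between the clones to 2 decimals.

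Itga4, the chain that binds VCAM1, was the member furthest below vehicle with TGF-β1. It stood at 1.38 with vehicle, 0.53 with TGF-β1, 0.61 with CCG1423 added, and -0.04 and 0.20 in the clones. Vehicle was highest and all 4 TGF-β1 arrays lay lower, the wild-type one by 1.80-fold. The second Itga4 probe was above background on no array. Itga2, the collagen receptor chain, was likewise above background on no array by its only probe, so no level or difference is given for it.

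As a group, 6 of the 9 measured members stood higher with TGF-β1 than with vehicle, with a median log2 difference of 0.24. Over all genes tested the median was -0.05 and 42.8% stood higher. Itga3 and Itgb3 counted as lower by the brighter probe, but their other probes gave 2.61 and 0.62. Among the 8 genes measured on all arrays, the difference between TGF-β1 and vehicle was larger than the gap between the clones in 5 (Itga4, Itga5, Itga6, Itgb3 and Itgb5), against 38.2% of 12055 genes, and 5 of these 8 stood higher with TGF-β1, against 40.6%.

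**Figure D2:**
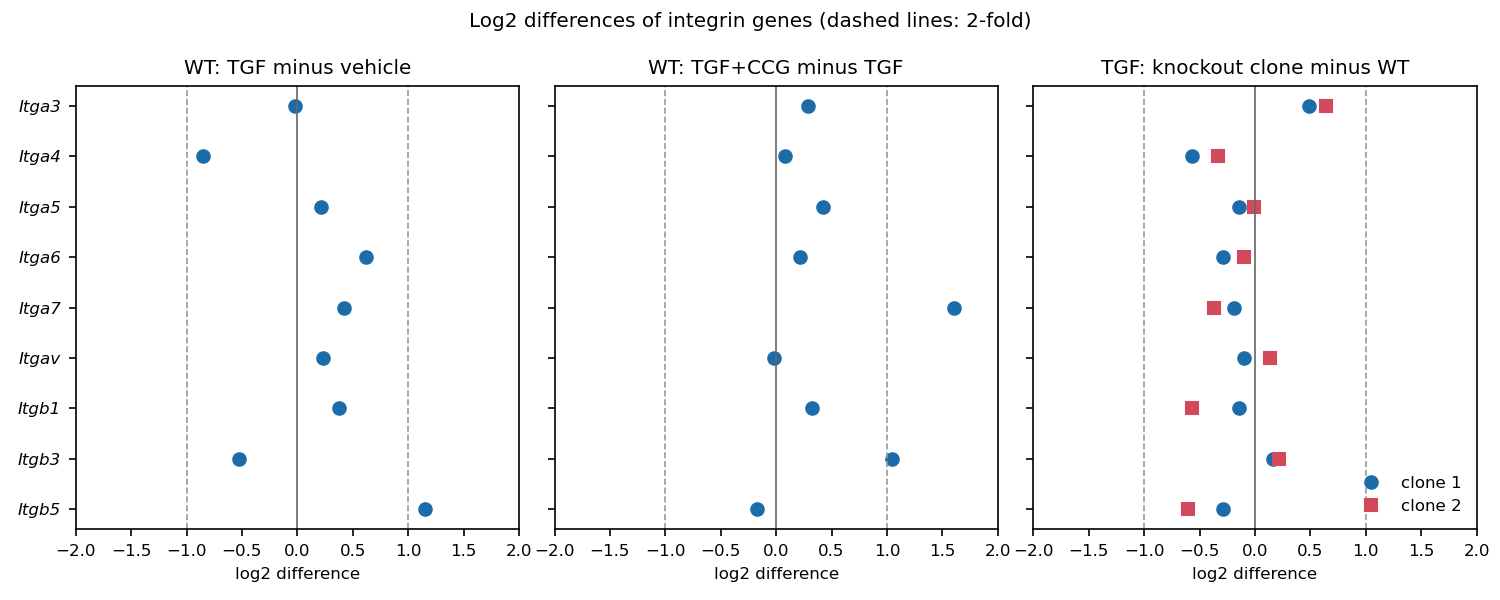
Log2 differences (horizontal axis) of the 9 measured integrin genes, 1 point per pair of arrays, for TGF-β1 minus vehicle, CCG1423 added to TGF-β1 minus TGF-β1 alone, and each knockout clone minus wild type under TGF-β1; dashed lines mark 2-fold. Itgb5 passes 2-fold in the left panel, Itga7 and Itgb3 in the middle one, and no gene in the right one; the 2 clones' points are squares (clone 2) and circles (clone 1).

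With CCG1423 added to TGF-β1, 7 of 9 measured members stood higher than with TGF-β1 alone and 2 stood lower. The median of the 9 was 0.29 against -0.05 over all genes, 46.3% of which stood higher. Itga3 and Itga6 counted as higher by the brighter probe, but a dimmer probe of each gave -0.82 and -0.26. In the same comparison all 11 melanocyte markers stood lower, with a median of -0.45 and 4 of them at least 2-fold lower; their part in the integrin values was not tested. Itga7, a laminin receptor chain known from muscle, was 3.03-fold higher and Itgb3 2.06-fold higher; 6.01% of 14054 genes were at least 2-fold higher in this comparison, 6.98% were lower and 13.0% differed either way. No member was 2-fold lower.

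Itga7 was dim, at -3.66 with vehicle, -3.24 with TGF-β1, -1.64 with CCG1423 added, -3.43 in clone 1 and -3.61 in clone 2, where it was not well above background. The CCG1423 array was the high one and the other 4 lay within 0.42 of each other. Its second probe was above background on no array, so the value rests on 1 probe. Itgb3, the partner of alpha-v named above, had its vehicle array at 2.52, TGF-β1 at 2.00, CCG1423 with TGF-β1 at 3.04, and clones 1 and 2 at 2.16 and 2.22. Here too the CCG1423 array was highest, and TGF-β1 alone lowest. Both calls fell below 2-fold with normexp background correction (0.78 for Itga7 and 0.94 for Itgb3 on the log2 scale), and that of Itgb3 also with the authors' scaling (0.91). The normexp setting adds an offset of 50 to every signal, which by itself makes log2 differences of dim probes smaller.

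The CCG1423 array was the highest of the 5 for 4 of the 8 fully measured members (Itga5, Itga6, Itgb1 and Itgb3) and the lowest for 0. Over all 12055 such genes it was the highest for 25.2% and the lowest for 34.0%. Of the 8, 6 stood higher with CCG1423 added, against 46.8% of genes, and for 4 (Itga3, Itga5, Itga6 and Itgb3) that difference was larger than the gap between the clones, against 59.1%. Itga5, Itga6 and Itgb1 ran upward from vehicle to TGF-β1 to TGF-β1 with CCG1423, an order found in 17.2% of genes. For Itga6 this holds by the brighter probe, since its 3 probes differed by 0.22, 0.01 and -0.26 with CCG1423 added. Itgb5, the member highest above vehicle with TGF-β1, differed by -0.17 with CCG1423, within the gap between the clones. Itgav differed by -0.02 and Itga4 by 0.08.

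By the brighter probe of each gene, no measured integrin gene was 2-fold away from treated wild type in either Tmsb4x clone; the second Itga3 probe, described further on, was lower in both, and the mean of the Itga3 probes was -1.61 in clone 2. The count was 0 of 9 in clone 1, where 6.23% of 13726 genes passed (2.77% higher, 3.46% lower), and 0 of 9 in clone 2, where 5.56% passed (2.77% higher, 2.79% lower). In both clones the same way, 2.28% of genes passed (0.699% higher, 1.58% lower). Between the clones, 0 members differed 2-fold, against 7.58% of 13846 genes (4.24% higher in clone 2, 3.34% lower). With limma, 0 of 9 members passed an adjusted p of 0.05, against 31 genes overall (0.226%, with 0.00729% higher and 0.219% lower). An unadjusted limma p under 0.05 was found for 0 of 9 members and for 791 of the 13726 genes. The adjusted p was 1.00 for each member, and its lowest value under any alternative fit at gene level was 0.846. In the limma fit over every probe, the second Itga3 probe had an adjusted p of 0.122.

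The sizes are small with wide intervals. The clones had a mean Itgb5 level of 3.07 ± 0.22 (SD, n = 2), a limma difference from wild type of -0.45 (95% interval -1.10 to 0.21). Itga4 differed by -0.45 (-1.15 to 0.25) and Itgb1 by -0.36 (-1.07 to 0.36). Each of these was lower in 2 of 2 clones. For Itga6 the difference was -0.20 (-0.86 to 0.47), for Itga5 -0.08 (-0.85 to 0.69) and for Itgav 0.02 (-0.63 to 0.66). By their brighter probes, Itga3 and Itgb3 stood higher in 2 of 2 clones, by 0.56 (-0.39 to 1.51) and 0.19 (-0.44 to 0.82). The dimmer Itgb3 probe went the other way, at -0.29 and -0.73 in clones 1 and 2. Itga7 gave -0.28 (-1.50 to 0.94), with a clone 2 signal that was not well above background. The fit has 1 residual degree of freedom, from the 2 clones, and 9.32 in total. The rest come from drawing each gene's variance toward a trend over all genes, so the interval widths rest largely on that trend. The fit also assumes that the single wild-type array varies like the clones. These intervals do not exclude a 2-fold fall of Itga4, Itgb1, Itgb5 or Itga7, or a 2-fold rise of Itga3.

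Both clones lay below treated wild type for 5 of the 8 fully measured members, against 29.5% of all such genes, above it for 2, against 34.8%, and on opposite sides of it for 1, Itgav, against 35.7%. The 2 above it were Itga3 and Itgb3 by their brighter probes, and the dimmer probe of each lay below it in both clones. Itga5, Itga6, Itgb1 and Itgb5 combined a higher level with TGF-β1 than with vehicle with a lower one in both clones, as 12.8% of genes did. These counts go by sign alone, and Itga5 differed by only -0.009 in clone 2. All the comparisons above use 1 wild-type TGF-β1 array, so its error enters each of them.

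The 2 probes of Itga3 did not give the same result. The brighter one stood at -2.16 with vehicle, -2.18 with TGF-β1, -1.89 with CCG1423 added, and -1.69 and -1.54 in the clones. The dimmer one stood at -3.20, -0.59, -1.41, -2.82 and -4.45 in the same order, and was not well above background in clone 2. On it the TGF-β1 array is the highest, the CCG1423 array next, and vehicle and both clones lie lower. Against vehicle, TGF-β1 gave a 6.11-fold higher signal. The probe was 1.76-fold lower with CCG1423 added, and 4.69-fold and at least 8.44-fold lower in clones 1 and 2 than in treated wild type. The bound sets the dimmer side at the lowest signal called well above background on that array, or at its own signal where higher.

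Fitted over all probes, the dimmer Itga3 probe had a log2 difference of -3.05 between knockout and wild type (SE 0.63, limma, unadjusted p = 0.00112, adjusted p = 0.122; lower in 2 of 2 clones). It did not pass the threshold. The fit used signals without the floor. The clone 2 value of -4.45 lay below -3.66, the lowest signal called well above background on that array. The TGF-β1 difference of that probe was 1.36 to 2.71 over 4 other ways of scaling or correcting the signal, and that of the brighter probe -0.04 to 0.08. Which Itga3 transcript each probe reports, and whether the 2 starts shown above bear on this, was not tested; both carry the same RefSeq accession.

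Itgb3 had a milder split. Its dimmer probe stood at -3.03 with vehicle, -2.41 with TGF-β1, -2.20 with CCG1423 added, and -2.70 and -3.14 in the clones. For TGF-β1 against vehicle it gave 0.62 where the brighter probe gave -0.52, and for CCG1423 0.21 where the brighter gave 1.05. The 2-fold call for Itgb3 with CCG1423 thus rests on the brighter probe. Against treated wild type the dimmer probe gave -0.29 and -0.73 in clones 1 and 2, where the brighter gave 0.16 and 0.22. Of 4 members with several probes measured on both arrays, the probes differed by at least 1 on the log2 scale for 2 with TGF-β1 (Itga3 and Itgb3), as for 2.40% of 4885 such genes, and for 1 with CCG1423 (Itga3), as for 8.35% of 4732. The probes of Itga6 and of Itgb1 gave the same direction with TGF-β1.

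**Figure D3:**
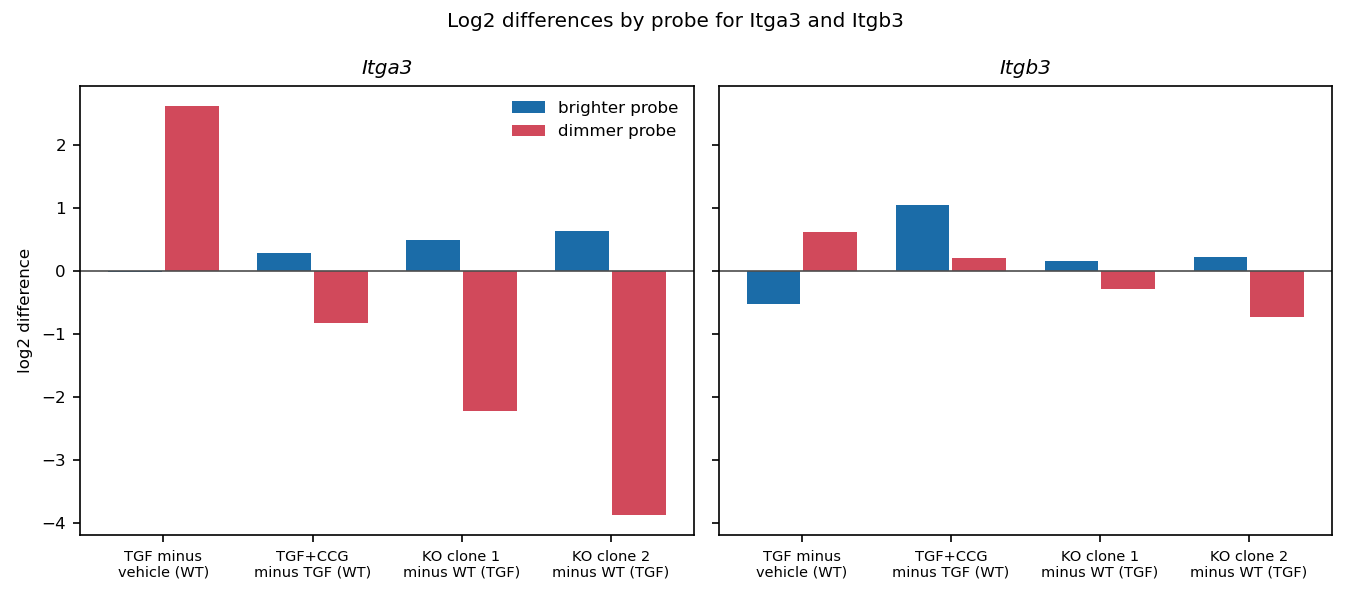
Log2 differences (vertical axis) for the brighter (blue) and dimmer (red) probe of Itga3 and Itgb3; each bar is a difference between 2 arrays, with no error bar since each side is 1 array. The dimmer Itga3 probe runs from 2.61 with TGF-β1 to -3.87 in clone 2, and the brighter one from -0.02 to 0.64.

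A further 18 genes listed as integrin subunits were on the array, although Itgbl1 is integrin-like rather than a subunit. Of these 18 genes, 8 were above background on no array, Itgbl1 among them. The 8 also held Itgb6 and Itgb8, whose products activate latent TGF-β when paired with alpha-v, and Itga2b and Itgax, of platelets and dendritic cells. Itga9, Itga10, Itgam and Itgb4 were measured on all 5 arrays. Itgb4, the laminin-binding partner of alpha-6 in hemidesmosomes, stood at -0.19 with vehicle, -0.25 with TGF-β1, -0.60 with CCG1423 added, and 0.35 and 0.17 in the clones. Itga9 lay between -1.30 and -1.15 and Itga10, a collagen receptor chain, between -2.47 and -1.87.

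Itgam, known as a myeloid integrin chain, lay between 4.61 and 5.08 on the 5 arrays by 1 probe, whereas its other probe was above background on the CCG1423 array alone. Its partner Itgb2 was above background with TGF-β1 alone, and Ptprc, Tyrobp and Lyz2, which mark leukocytes, on no array. Of the immune marker list, Cd3e, Cd68 and Csf1r were above background on all arrays. The summed log2 level of the list ran from 5.04 to 5.42, but the list holds Itgam, which makes up most of that sum. The part of immune cells in the Itgam value was not tested. Itga1, a collagen receptor chain, was 2.25-fold lower with TGF-β1 than with vehicle by its brighter probe (-2.78 and -3.95) and differed by -0.09 on the other. Itgal, a leukocyte chain, was at least 2.53-fold lower with CCG1423. Itga8 was above background with vehicle alone and Itgae in clone 1 alone.

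The partners of integrins were followed in 4 lists. The list of activators also holds inhibitors of activation, such as Itgb1bp1 and Sharpin. It had 0 of 11 measured genes at 2-fold with TGF-β1, against 8.22% of all genes, and 1 of 11 with CCG1423, near the 13.0% of all genes. That gene was Tln2, a talin, which stood at 1.83 with vehicle, 2.51 with TGF-β1, 1.46 with CCG1423 added, and 1.54 and 1.63 in the clones; it was 2.07-fold lower with CCG1423. Tln2 was highest with TGF-β1 in wild type, and its second probe ran the same way.

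Adhesion adaptors and kinases had 6 of 35 measured genes at least 2-fold higher with TGF-β1 and 1 lower, against 4.95% and 3.27% of all genes. With CCG1423 2 were higher and 3 lower, against 6.01% and 6.98%. Ptk2b, the kinase Pyk2 that acts at adhesions, was at 0.27 with vehicle, 2.47 with TGF-β1 and -1.27 with CCG1423 added, and stood at 1.79 and 2.30 in the clones. It was 13.3-fold lower with CCG1423 than with TGF-β1 alone, and below vehicle, and its second probe was not above background there. Arhgef7, an exchange factor that joins the paxillin complex, stood at 2.05 with vehicle, 4.20 with TGF-β1 and 2.77 with CCG1423 added, 2.69-fold lower than TGF-β1 alone. Tgfb1i1, a paxillin relative, was above background with vehicle and with CCG1423 only, at least 8.81-fold higher with CCG1423 than with TGF-β1 alone, and Elmo1, a regulator of Rac, at least 2.33-fold higher on 1 of its probes. Fblim1, a filamin-binding adaptor, was the 1 of 33 genes at 2-fold in both clones, against 2.28% of all genes, being 2.13-fold and 2.32-fold lower (limma adjusted p = 0.514), and Lims2, a focal adhesion adaptor, had the highest fold of the list with TGF-β1, 39.8-fold.

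Among ligands and matrix proteins, TGF-β1 gave 10 of 25 measured genes at least 2-fold higher and 4 lower, against 4.95% and 3.27% of all genes, with a median of 0.53 against -0.05. The 2 highest folds were those of Ccn2 (55.5) and Col1a1 (29.7), and the 2 lowest those of Tnc, a matrix protein of remodelling tissue, and Icam2, a leukocyte adhesion ligand, at least 3.71-fold and 2.56-fold lower. With CCG1423, 5 of 23 were higher and 4 lower, against 6.01% and 6.98% of all genes, among them Tgfb1, at least 2.45-fold higher, Icam1, at least 2.90-fold lower, and Col1a1, 2.51-fold lower. Lama5, a laminin chain, stood at 1.76 with vehicle, 1.41 with TGF-β1, 2.87 with CCG1423 added and -0.35 in clone 2, with clone 1 near treated wild type; it was 2.75-fold higher with CCG1423. Col4a1, a basement membrane collagen chain, stood at 1.64, 2.75, 3.18, 1.31 and 1.35 in the same order, and its clones lay below every wild-type array (limma adjusted p = 0.0899). In both clones 3 of 22 genes of this list were at least 2-fold lower, against 1.58% of all genes, and 1 higher, against 0.699%. The higher one was Col1a2, by 3.29-fold and 2.80-fold. Icam1, among the 3 lower ones, was at least 3.52-fold and 2.43-fold lower. Only treated wild type without CCG1423 had a detected Icam1 signal, at a level of -2.38. The Icam1 folds for CCG1423 and for both clones thus all rest on that 1 array. With limma 0 genes of the 4 lists passed 0.05.

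Co-receptors and trafficking genes had 1 of 24 measured genes at 2-fold with TGF-β1 and 2 with CCG1423, shares below the 8.22% and 13.0% of all genes. Acap1, which recycles beta-1 integrin from endosomes, was at least 6.93-fold higher with TGF-β1 and at least 5.41-fold lower with CCG1423, above background on the 3 arrays with TGF-β1 and no CCG1423. Plaur, the urokinase receptor that binds integrins, stood at 0.40 with vehicle, -0.30 with TGF-β1, 1.00 with CCG1423 added, and -0.48 in clone 1, with clone 2 lowest, and was 2.46-fold higher with CCG1423. The median of this list was -0.02 with TGF-β1, near that of all genes.

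**Figure D4:**
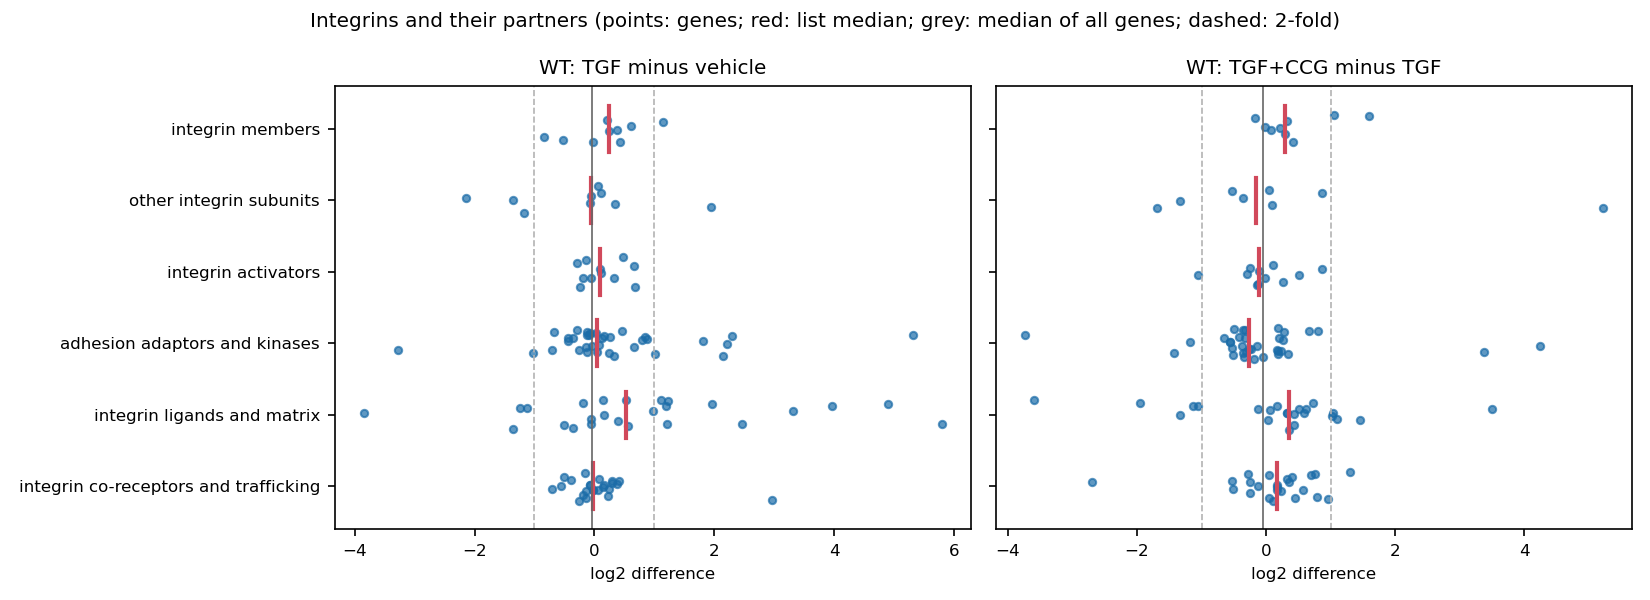
Log2 differences (horizontal axis) of the measured genes of 6 lists, for TGF-β1 minus vehicle and for CCG1423 added minus TGF-β1 alone; each point is 1 gene by its brighter probe, including genes below background on 1 of the arrays, red bars are list medians and the grey line the median of all genes. Ligands spread furthest to the right with TGF-β1 (median 0.53), and in that panel the 9 integrin members lie between -0.85 and 1.15.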

How the data were processed

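Scanner output of the 5 arrays came from Agilent Feature Extraction (12.0.3.1 per the submitters' processing notes). The intensity used, the deposited processed signal, had background subtracted and a spatial trend removed array by array, per the file headers. The deposited 0 or 1 flags mark outlier, saturated and well-above-background spots. The authors' value table holds the same intensity times 1 constant per array (log2 constants -0.17 to 0.34, column medians 23.2 to 29.2); it is linear and not centred, and the rule behind the constants is unknown.

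Control spots (3671) and outlier spots (107 to 141 per array, 0 on integrin probes) were left out, log2 signals of a probe were averaged, and each array's 75th percentile was subtracted. Probes were named by unversioned RefSeq accession through a gene table of GRCm38.p6 (32983 of 56595 probes, 22903 genes). Since the headers give mm9 as build, probe positions are not printed. Each gene was represented by its probe of highest mean level. To be compared, a gene needed a well-above-background flag on all arrays of 1 or both groups. Single arrays were compared without a test, at 2-fold. For folds, a side below background was set to the floor described, and such folds are bounds. The floor was not used for log2 differences or in limma. Knockout and wild type were compared by limma (3.58.1, R 4.3.3; lmFit, eBayes with trend, 5 arrays in 4 groups, Benjamini-Hochberg over 13726 genes, threshold 0.05). In simulated arrays of these 13726 genes, 99 of 100 genes changed by 3 and 28 of 100 changed by 1 on the log2 scale were called, with 18 unchanged genes. The simulation gave all 5 arrays the clones' spread, shared by genes of similar level. It thus builds in the assumption that wild type varies like the clones and cannot check it. Tables used Python 3.11.15.

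The rule for names took the 10 genes with all probes, Tmsb4x, other subunits above background somewhere, and up to 2 highest and 2 lowest members per partner list and comparison at 2-fold, and the 5 genes nearest in profile to the widest-ranging member. The immune markers named and the limma value of the dimmer Itga3 probe were singled out after their values were seen. Members and lists were chosen with earlier results of these data known. The number of arrays limits the precision.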

Additional observations from a re-analysis of the deposited data

How the results depend on the processing

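No paired analysis was possible, since each wild-type group has 1 array and the labels give no pairing. The file set lacks the mean spot signal, so normexp was run on the median signal, an alternative chosen after seeing the data. The number of integrin genes at 2-fold with TGF-β1 was 1 in the other settings run and 2 with the mean of all probes of a gene, where Itga3 joined Itgb5. With CCG1423 it was 2, but 0 with normexp, 1 with the authors' value table and 1 with the mean of probes. In both knockout clones together it was 0 under every setting run and without either clone, although the mean of probes put Itga3 at -1.61 in clone 2 alone.

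The limma count over all genes, 31, was 85 with normexp, 74 with the percentile over detected probes, 220 with the authors' value table, 279 without a filter, 3 with genes measured on every array compared, 184 without the trend and 146 over every probe. It was 0 with quantile normalization (785 at an unadjusted p under 0.05) and 0 with the mean of probes (742). No integrin gene passed in any of these fits at gene level. The counts at 2-fold over all genes were 573, 2584 and 622 with TGF-β1 (main 1162) under normexp, no filter and measured genes only. With CCG1423 they were 871 and 3275 (main 1826) under normexp and no filter, and in both clones 133, 884 and 132 (main 313). With the value table the split of higher and lower genes was 658 and 1304 with CCG1423 (main 845 and 981) and 52 and 273 in both clones (main 96 and 217); with measured genes only it was 79 and 53 in both clones. The cause was not tested.

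Of 289 recomputed differences of single members, 265 kept their sign. Of the 24 others, 14 came from averaging probes and 5 from the value table, and none of those 24 had a size above 0.64 in the main setting. Part of the 289 could not change sign. The limma differences without a filter, with measured genes only and without the trend equal the main ones. Averaging probes also changes nothing for Itga2, Itga5, Itgav and Itgb5, which have a single probe. The count of 265 thus overstates how stable the signs are. The value table shifted the median of all genes by 0.10 with TGF-β1, -0.13 with CCG1423 and -0.36 in clone 1. Without a filter that median moved by 0.26 with CCG1423, 0.20 in clone 1 and 0.18 in clone 2. Itga2 and the second probes of Itga4 and Itga7 were above background on no array, so no difference is read from them. Their signals still entered the 289 differences, those of Itga2 directly and the second probes through the mean of probes.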

Other observations

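Among 12054 other genes measured on all arrays, those whose profile lay closest to that of Itga4, the fully measured member with the widest range (1.42), were Fmnl2, a formin (root mean square distance 0.10 on the centred log2 scale over 5 arrays), Rab3il1 (0.12), Gsn, the actin-severing protein gelsolin (0.12), Gstcd (0.13) and Panx1, a membrane channel (0.13). Gsn stood at 5.46 with vehicle, 4.29 with TGF-β1, 4.63 with CCG1423 added, and 3.80 and 4.19 in clones 1 and 2. Vehicle was its highest array and clone 1 its lowest, the order also seen for Itga4. The list holds the nearest of many genes over 5 arrays and has no test.

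Itgad, a leukocyte integrin chain, was at least 10.5-fold higher with CCG1423 than with TGF-β1 alone by 1 probe (-1.08 and -6.31), which was also above background with vehicle (-4.16). Its other probe was above background in clone 2 alone (-2.93). The 2 probes were never above background on the same array.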
